A study of Homo sapiens with 12 samples.

Results

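MiaPaca2 is an established cell line derived from a human pancreatic ductal adenocarcinoma and widely used to study that cancer. The 6 MiaPaca2 libraries of a 12-library study were examined here: 3 from cells kept in the solvent DMSO and 3 from cells given 100 nM trametinib, each for 48 h, as the sample labels state. The other 6 libraries, of the pancreatic cancer line KP4 under the same doses and time, serve only for comparison. All cells grew in DMEM with fetal bovine serum, antibiotics and HEPES. MiaPaca2 is 1 line, and whether the 3 libraries of a group were grown as separate cultures is not stated in the labels. The p-values therefore rest on the spread among these libraries, which may be technical. Of 58735 genes in the count table, 28748 had at least 1 count in MiaPaca2 and 15278 passed the filter on low counts and were tested.

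Trametinib inhibits MEK1 and MEK2 allosterically, and these kinases are the only known direct activators of ERK1 and ERK2. ERK phosphorylates transcription factors and kinases that drive growth, ribosome production and division, and its loss is known to release feedback on receptors and other pathways. The immediate ERK targets and feedback genes, cell cycle, lysosome, iron and interferon genes form 7 lists that were set aside. The programmes described are the other ones, held in 61 lists, of which 60 are shown, together with the genes of largest change outside the lists set aside.

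Total counts of the 6 libraries ran from 20293688 to 24685087. In a principal component analysis of the 6, 83.7% of the variance lay on component 1, which put the DMSO libraries between −62.3 and −55.7 and the trametinib libraries between 59.1 and 60.8. DMSO replicate 2 stood apart from replicates 1 and 3: chi-square per degree of freedom over genes was 14.5 and 13.3 against these and 7.70 between them, while the trametinib libraries differed pairwise by 2.65 to 2.89. Among 10667 genes with 5 or more CPM in DMSO (CPM being counts scaled by library total and TMM factor), 164 were at least 1.5-fold higher and 69 at least 1.5-fold lower in replicate 2 than in the mean of the other 2. Transcripts of the mitochondrial genome held 2.35%, 3.32% and 2.25% of counts in DMSO replicates 1, 2 and 3 and 4.02% to 4.25% under trametinib. Of the defining markers checked, the ductal keratins KRT8, KRT18 and KRT19 and the mesenchymal VIM were abundant, while the epithelial EPCAM and CDH1 stayed under 1 CPM in DMSO. The ductal keratin KRT7 was low too, at 0.578 to 1.11 CPM in DMSO and 0.918 to 1.28 CPM under trametinib. The acinar markers PRSS1, CPA1, PNLIP, AMY2A and PTF1A, the islet markers INS, SST and CHGA, the T cell marker CD3E and the endothelial marker KDR had 0 counts in all 6 libraries. Other markers of such cells were not at 0, with the neuroendocrine SYP at 12.1 to 16.1 CPM, the leukocyte PTPRC at 2.13 to 5.32 CPM, CD14 at 0.2 to 2.31 CPM and the endothelial CDH5 at 0.28 to 1.69 CPM.

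Trametinib changed the expression of most genes tested. In edgeR's quasi-likelihood test at an adjusted p under 0.05, 61.3% of the 15278 genes were called: 4717 were higher (30.9%) and 4642 lower (30.4%). The counts given per list below are to be read beside these shares. The 2 directions differed in size: 1819 genes rose and 763 fell at least 2-fold. Among called genes the median size of the log2 fold change was 0.621, and over all genes tested the median was 0.00676. The libraries of the 2 groups did not overlap for 10195 genes, 66.7% of those tested. Leaving out DMSO replicate 2 kept 8965 of the 9359 called genes in the same direction, lost 394 and added 614, and none of those called both ways changed direction. Direction over called changes of any size went with abundance. Among 2518 protein-coding genes over 100 CPM on average, 27.0% rose and 53.4% fell, whereas among 741 under 1 CPM 36.7% rose and 6.88% fell. Changes of at least 2-fold were more often rises at every level. They were 5.76% higher and 3.81% lower over 100 CPM, and 36.0% and 6.75% under 1 CPM. In bulk RNA, a change in the number of cells of one state and a change in RNA per cell cannot be told apart.

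**Figure D1:**
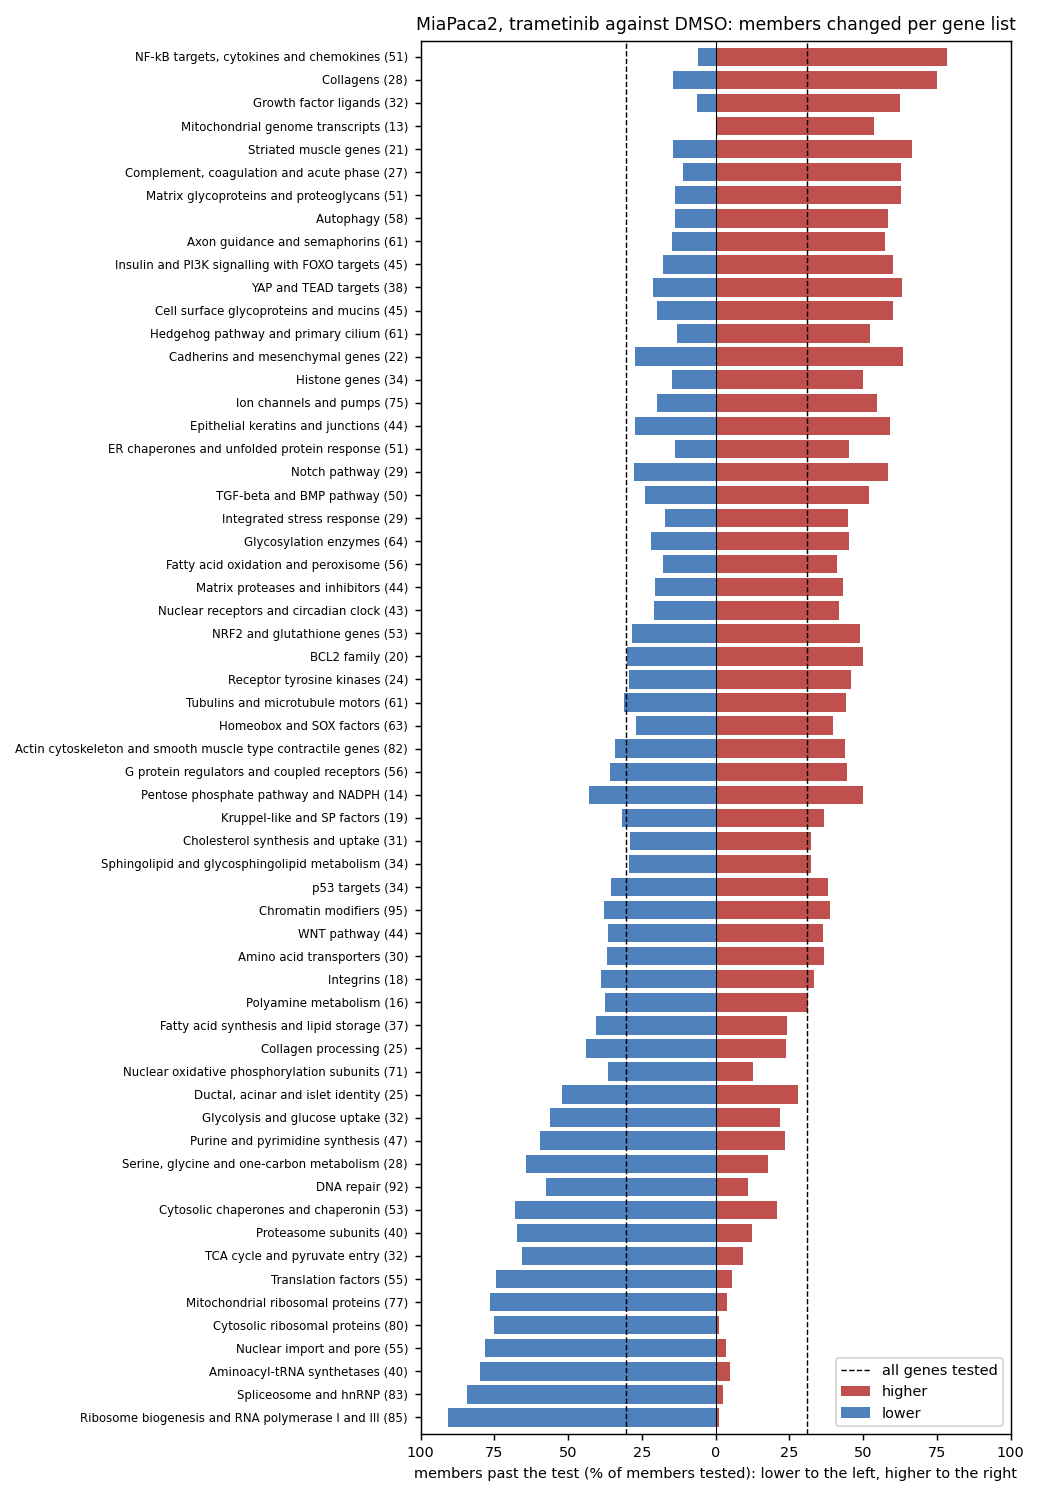
Share of the tested members of each of 60 gene lists that passed edgeR's test as higher (right, red) or lower (left, blue) in MiaPaca2 under trametinib, with the number tested in parentheses; dashed lines mark the shares over all 15278 genes, 30.9% higher and 30.4% lower. Secreted, matrix and cytokine lists lie at the top with most members higher, and lists of the gene expression machinery at the bottom with most members lower.

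The largest rises outside the lists set aside were in genes that were near silent in DMSO. IGFN1, an immunoglobulin and fibronectin domain protein of skeletal muscle (ENSG00000163395, chromosome 1, 201190825 to 201228952, GRCh38), was at 0, 0 and 0.0444 CPM in DMSO replicates 1 to 3 and at 44.7, 43.7 and 48.1 CPM under trametinib. DMSO held 1 count over the group, so the ratio of counts was 3200 with a 95% interval of 574 to 127000. ALPG, an alkaline phosphatase whose near-identical paralogs make its count uncertain, had 0 counts in DMSO and 9.28, 7.92 and 10.8 CPM under trametinib, at least 220-fold higher. The complement factor gene CFB (ENSG00000243649, chromosome 6, 31945650 to 31952084), which opens the alternative pathway, went from 0.165, 0.0427 and 0 to 21.5, 19.3 and 20.3 CPM, which is 8.06 ± 0.29 on the log2 scale (fold change ± its SE, as in the parentheses after it; adjusted p = 2.03e-13 in edgeR), or 9.56 without DMSO replicate 1. Its exons share 23 bases with the neighbouring C2. None of these groups overlapped.

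Of the other top risers, IDO1, the enzyme that opens tryptophan breakdown, went from 0.124, 0.128 and 0.0888 to 10.4, 10.6 and 12.3 CPM (6.54 ± 0.28). IL4I1, a secreted amino acid oxidase, rose from 0.227 ± 0.127 to 11.9 ± 0.62 CPM (mean ± SD, n = 3), with 336 exon bases shared with NUP62. AKR1C2, an aldo-keto reductase of steroid metabolism, rose from 0.115 to 8.43 CPM, though close paralogs leave its count uncertain. LCN2, a secreted protein that binds iron-carrying siderophores, rose from 0.289, 0.0427 and 0.311 to 10.8, 10.2 and 10.9 CPM (5.60 ± 0.29, edgeR adjusted p = 3.02e-11). RASGRP3, an exchange factor that loads RAS and RAP proteins with GTP, rose from 0.124, 0.299 and 0.178 to 14, 14 and 15.5 CPM (6.14 ± 0.24). TRANK1, a large ankyrin-repeat protein, went from 3.14, 2.48 and 4.13 to 206, 204 and 214 CPM, and was the most abundant of these 15 genes after treatment. The rest were TMEM140 (6.13), the adhesive plasma protein gene VTN (6.06), KLHDC7B (5.50), the phospholipase-like PLAAT4 (5.31), the stress keratin KRT16 (5.23) and the chitinase-like CHI3L2 (5.22). IDO1, TRANK1, TMEM140 and PLAAT4 are known to be induced by interferon although they are not on the list set aside, and of that list 97 of 102 tested genes rose, with a median of 3.54.

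Among the largest falls outside those lists, SHH, the secreted Hedgehog ligand (ENSG00000164690, chromosome 7, 155799986 to 155812273), fell from 23.8, 24.5 and 24.6 to 1.95, 1.88 and 1.28 CPM (−3.84 ± 0.15, edgeR adjusted p = 6.65e-13). CALB2, the calcium-binding protein calretinin, fell from 143, 142 and 163 to 15.7, 13.7 and 14.7 CPM (−3.34 ± 0.08), the most abundant of these fallers in DMSO. NRROS, which holds latent TGF-beta at the cell surface, fell from 26.6 ± 3.25 to 0.872 ± 0.29 CPM (−4.90), with 222 exon bases shared with PIGX. The sialic acid-binding lectin CD22 fell from 21.4 ± 2.18 to 0.723 ± 0.145 CPM (−4.88), and the transmembrane collagen COL13A1 from 10.6 ± 1.67 to 0.32 ± 0.138 CPM (−5.01). Also among them were the focal adhesion adaptor TNS4 (−4.18), the RAS-induced membrane protein TMEM158 (−3.87), the constitutively active receptor GPR3 (−3.73), the guidance receptor ROBO4 (−3.50) and MYEOV (−4.71). Another 4 were the long non-coding genes CASC19 (−5.11), ENSG00000204876 (−4.62), ROR1-AS1 (−3.64) and ENSG00000285517 (−3.54). In each of these 29 risers and fallers the DMSO and trametinib libraries did not overlap, as the rule that chose them required.

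**Figure D2:**
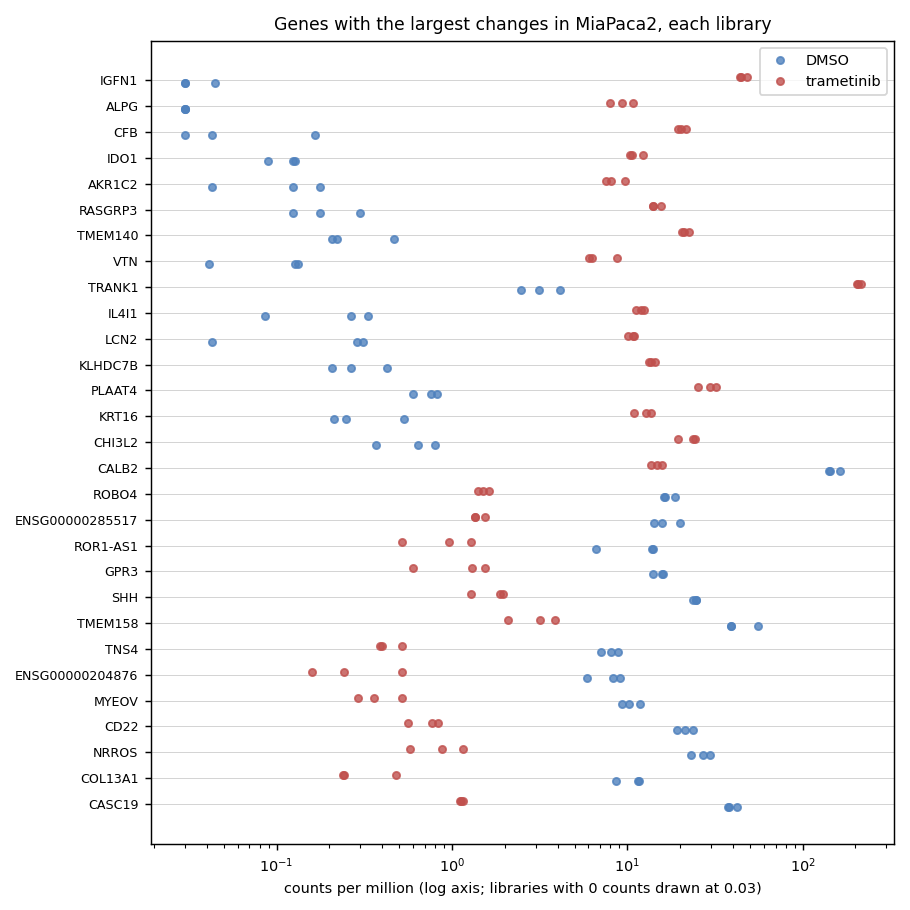
CPM (log axis) of 15 genes with the highest and 14 with the lowest log2 fold changes outside the lists set aside, 1 point per MiaPaca2 library; libraries with 0 counts are drawn at 0.03. The risers start at or below 4.13 CPM in DMSO, and the fallers drop from between 5.89 and 163 CPM to at most 15.7 CPM.

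In absolute terms, outside the lists set aside and the mitochondrial genome, the largest gains were in other genes. HELZ2, a helicase and nuclear receptor coactivator that is also known to respond to interferon, rose from 90.2, 103 and 102 to 1536, 1462 and 1516 CPM (3.93 ± 0.06, edgeR adjusted p = 2.91e-18). WARS1, the tryptophanyl-tRNA synthetase, rose from 484, 469 and 488 to 1678, 1694 and 1735 CPM (1.83 ± 0.05), and interferon is known to induce it too. COL5A2, a chain of fibrillar collagen V, rose from 627, 542 and 586 to 1749, 1725 and 1763 CPM (1.58 ± 0.05). MYH9, the heavy chain of non-muscle myosin II, rose from 1382 to 2618 CPM, and the redox enzyme gene TXNRD1 from 1346 to 2335 CPM. SQSTM1, the autophagy receptor p62, was at 686, 1039 and 732 CPM in DMSO, highest in replicate 2, and at 2212, 2181 and 2148 CPM under trametinib. It shares 1582 exon bases with MRNIP, and WARS1 shares 385 with ENSG00000258666. Among the 10 largest losses in CPM were ACTB, which encodes beta-actin (8619 to 6384 CPM), PKM, the last enzyme of glycolysis (3665 to 1642), the translation factor EEF2 (5604 to 4450), the nucleolar NCL (2566 to 1652), the chaperones HSP90AA1 (2911 to 1242) and HSP90AB1 (2840 to 1731), HMGA1, a chromatin architectural protein (2122 to 619), and VIM, the mesenchymal filament vimentin (6071 to 4854). The glycolytic genes GAPDH (6756 to 5453 CPM, a fall by 0.31 on the log2 scale) and ENO1 (3801 to 2771 CPM, by 0.46) complete the 10.

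Promoters of the genes that rose held fewer of the sequence words typical of broadly active promoters. RefSeq promoters (GRCh38.p14, 250 bases before to 50 after the start) were found by symbol for 10450 of 12915 protein-coding genes tested. The ETS word CCGGAAG stood, on either strand, in 19.2% of all of these, in 6.35% of the 1149 promoters of genes that rose at least 2-fold and in 15.5% of the 431 that fell at least 2-fold. The NRF1 word GCGCATGC was in 5.44%, 2.35% and 4.41%, and the E2F word GGCGGGAA in 5.19%, 2.87% and 5.10%, in the same order. The AP-1 word TGANTCA was in 4.24% of all, 6.18% of those that rose and 3.94% of those that fell, and the FOXO word GTAAACA in 2.26%, 2.96% and 2.78%. Median GC content was 65.7%, 63.7% and 65.3%. With genes of the lists set aside removed, the ETS word was in 6.27% of risers and the AP-1 word in 5.89%. Rises of at least 2-fold took in 36.0% of protein-coding genes under 1 CPM and 5.76% of those over 100 CPM. The promoter sets were not matched by level, and how far level accounts for their differences was not tested. A matching word is a description of the sequence and shows no binding. Shown next are the 250 bases before the start of 2 risers that hold the AP-1 word (LCN2 and the glucose transporter SLC2A12), 1 riser with the ETS word at 2 places (WARS1), and a faller that holds the ETS and the FOXO word (the transcription factor TCF7). They are written 5′ to 3′ on the gene's strand, with AP-1, ETS and FOXO words, or their reverse complements, in capitals. They lie at chr9:128149203-128149452 (plus strand), chr6:134052625-134052874 (minus), chr14:100376328-100376577 (minus) and chr5:134115363-134115612 (plus) of GRCh38.p14.
LCN2: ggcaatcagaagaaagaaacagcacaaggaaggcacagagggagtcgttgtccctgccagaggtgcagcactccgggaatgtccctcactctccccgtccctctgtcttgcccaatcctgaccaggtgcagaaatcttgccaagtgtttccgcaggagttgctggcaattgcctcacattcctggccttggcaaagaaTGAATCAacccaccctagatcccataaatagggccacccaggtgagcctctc
SLC2A12: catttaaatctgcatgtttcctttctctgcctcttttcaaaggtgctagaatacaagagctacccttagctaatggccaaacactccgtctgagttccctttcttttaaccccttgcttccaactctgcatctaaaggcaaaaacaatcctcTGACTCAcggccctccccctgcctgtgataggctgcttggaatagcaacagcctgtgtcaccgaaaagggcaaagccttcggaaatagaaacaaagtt
WARS1: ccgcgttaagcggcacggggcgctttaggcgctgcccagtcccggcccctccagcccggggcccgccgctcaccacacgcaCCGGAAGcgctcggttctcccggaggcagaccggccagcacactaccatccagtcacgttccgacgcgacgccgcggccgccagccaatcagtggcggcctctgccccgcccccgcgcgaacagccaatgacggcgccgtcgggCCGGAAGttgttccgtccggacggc
TCF7: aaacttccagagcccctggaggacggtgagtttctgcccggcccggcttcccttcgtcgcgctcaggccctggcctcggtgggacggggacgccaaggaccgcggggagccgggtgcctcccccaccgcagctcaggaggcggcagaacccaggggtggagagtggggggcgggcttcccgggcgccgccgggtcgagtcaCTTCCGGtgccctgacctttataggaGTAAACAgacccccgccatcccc

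Cytokine and NF-kB target genes rose more than any other list described. NF-kB is a family of dimeric transcription factors, held in the cytoplasm by inhibitors, whose targets include chemokines, acute phase proteins and its own inhibitors. Of 51 tested members, 40 were higher and 3 lower, against 30.9% and 30.4% of all genes, and the median log2 fold change was 1.69 against 0.00676 over all genes tested. Among the ligands, CCL2, which attracts monocytes, rose from 25.8, 25.9 and 28.7 to 141, 158 and 161 CPM (2.52 ± 0.07, edgeR adjusted p = 9.06e-15). CSF1, the macrophage growth factor, rose from 38.6, 33.9 and 46.7 to 154, 148 and 159 CPM (1.95 ± 0.09). The libraries of both groups stood clear of each other for both. IL32 rose from 0.487 ± 0.165 to 17 ± 0.953 CPM (5.12), CCL20 from 0.496 to 9.82 CPM, the neutrophil chemokine CXCL2 from 5.75 to 19.2 CPM and TNF from 0.10 to 2.4 CPM. The acute phase genes SAA1 and SAA2, near-identical neighbours whose counts are uncertain, held 1 and 0 counts in DMSO and averaged 4.69 and 4.74 CPM under trametinib. Not every cytokine rose: CXCL5 was at 56.7 and 55.8 CPM (edgeR adjusted p = 0.893) and IL18 at 37.4 and 40.2 CPM (0.615).

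Genes of the NF-kB pathway's own inhibitors and subunits were higher too, and activity of the pathway was not measured. On the interferon list set aside 97 of 102 tested genes rose (median 3.54). How far the rises described here belong to that response was not tested. The inhibitor genes NFKBIA (74.5 to 162 CPM), TNFAIP3 (5.38 to 28.4) and NFKBIZ (3.37 to 20.9) rose, as did the survival factor BIRC3 (25.5 to 97.3) and the adaptor TRAF1 (11.3 to 41.1). Of the subunits, RELB, the partner of the non-canonical arm, went from 15.4, 20.5 and 19.3 to 60.0, 59 and 58.8 CPM (1.69 ± 0.09) and NFKB2 from 57.6, 71.3 and 65.3 to 128, 127 and 123 CPM (0.96 ± 0.07). RELA (0.43), REL (0.65) and NFKB1 (0.32) rose less. The 3 members that fell were PTGS2, the inducible prostaglandin synthase (4.8 to 0.739 CPM), IL11 (2.09 to 0.801) and CSF3 (2.68 to 1.11). Without DMSO replicate 2 the number that fell was 5. In KP4 the median of the same list was 0.45, and 29 members differed between the lines in the test of the difference, which called 36.1% of 16133 genes.

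Complement and lipid carrier genes also rose. The complement list is not separate from the cytokine and NF-kB list, since both hold CFB. The serine proteases that start the classical pathway, C1R and C1S, went from 3.42, 1.71 and 3.95 to 87.6, 92.2 and 91.5 CPM (4.90 ± 0.17) and from 9.59 to 119 CPM (3.63). C1R shares 672 exon bases with its neighbour C1RL. C3, the central component, rose from 0.653 ± 0.159 to 18.1 ± 1.78 CPM (4.78). APOE, the lipoprotein that carries cholesterol, was at 21.4, 36.3 and 25.9 CPM in DMSO and at 345, 358 and 376 CPM under trametinib (3.69 ± 0.18, edgeR adjusted p = 3.88e-06), and CLU, a secreted chaperone, rose from 116 to 328 CPM. In all 17 of 27 complement, coagulation and acute phase genes were higher and 3 lower, with a median of 0.40. The fallers were the coagulation factor F12 (−1.55), the properdin gene CFP (−1.09) and TFPI2 (−0.42). CFP did not pass without DMSO replicate 1 or 3 or trametinib replicate 1 or 3 (edgeR adjusted p = 0.0948 to 0.106). TFPI2 did not pass without DMSO replicate 2 (−0.19, edgeR adjusted p = 0.123), and without trametinib replicate 1 only 1 of the 3 passed as lower. The membrane regulators CD46 (0.05, 0.50) and CD55 (0.06, 0.557) did not pass.

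Growth factor ligands were mostly higher, while their receptors were divided. Of 32 ligand genes tested, 20 were higher and 2 lower, with a median of 0.73. HGF, the ligand of the receptor MET, was at 189, 244 and 162 CPM in DMSO and 424, 425 and 448 CPM under trametinib (1.12 ± 0.14, edgeR adjusted p = 3.12e-04). FGF2 rose from 21, 16.9 and 18.4 to 78.4, 74.8 and 80.6 CPM (2.05 ± 0.08), with 804 exon bases shared with NUDT6. Of the ERBB ligands, BTC rose from 3.96, 4.18 and 3.55 to 23.1, 23.6 and 24 CPM (2.59 ± 0.12). EPGN had 0 counts in DMSO and 1.17 CPM under trametinib, which is at least 27.7-fold higher. PDGFB rose from 16.2 to 67.9 CPM, KITLG from 4.8 to 12.7 CPM and GAS6, the ligand of the TAM receptors, from 20.1 to 63.3 CPM. The 2 that fell were VEGFA (−0.49 ± 0.09) and the placental growth factor gene PGF (−1.60 ± 0.29), and without trametinib replicate 3 there were 4.

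Receptor tyrosine kinase genes rose in 11 and fell in 7 of 24 cases, 45.8% and 29.2% against 30.9% and 30.4% of all genes tested. The collagen receptor DDR1 rose from 116, 128 and 127 to 365, 347 and 360.3 CPM (1.53 ± 0.06, edgeR adjusted p = 1.77e-13). FGFR1 rose from 94 to 209 CPM and FGFR3 from 18 to 46.2 CPM, whereas FGFR4 fell from 14.6 to 9.26 CPM. EGFR rose from 302 to 401 CPM (0.41 ± 0.05) and ERBB2 from 166 to 223 CPM, and ERBB3 fell from 4.5 to 2.24 CPM. PDGFRB, the receptor for PDGFB, went from 0.212 to 2.43 CPM. MET was at 295 and 254 CPM (edgeR adjusted p = 0.333), INSR at 43 and 44.6 (0.547), and IGF1R fell by 0.60 on the log2 scale.

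Genes of the insulin, PI3K and FOXO axis were more often higher than lower. FOXO transcription factors are held out of the nucleus when AKT is active and switch on genes of growth arrest and energy saving when it is not. Of 45 tested genes 27 were higher and 8 lower (median 0.46). FOXO1 rose from 2.84 to 6.53 CPM and FOXO3 from 15.8 to 26.2 CPM. PIK3IP1, a negative regulator of PI3K, rose from 0.784, 0.512 and 0.222 to 5.77, 6.09 and 5.36 CPM (3.47 ± 0.30), and PIK3R3, a regulatory subunit, from 45.5, 42.2 and 42.8 to 163, 159 and 167 CPM (1.91 ± 0.06, edgeR adjusted p = 3.52e-14). TXNIP, which restrains glucose uptake, rose from 52.6 to 155 CPM, KLF9 from 8.88 to 24.3 CPM and DEPTOR, an mTOR inhibitor, from 3.25 to 7.98 CPM. TRIB2, a pseudokinase that binds AKT, fell from 70.5, 58.5 and 63.6 to 10.6, 10.7 and 11.8 CPM (−2.54 ± 0.09). The kinase genes AKT1 and MTOR fell by 0.36 and 0.27 on the log2 scale. AKT2, PIK3CA and IRS2 did not pass the test.

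In the Hedgehog pathway the ligand fell while its receptor and effector rose. Hedgehog ligands bind PTCH1, which releases SMO and lets GLI factors switch on targets that include PTCH1 and GLI1 themselves, and the relay runs through the primary cilium. Against the fall of SHH given above, PTCH1 rose from 30.4, 27.9 and 27.2 to 137, 136 and 141 CPM (2.28 ± 0.07, edgeR adjusted p = 9.41e-15) and GLI1 from 22.4, 30.0 and 23.3 to 55.4, 55.3 and 52 CPM (1.10 ± 0.10, 3.82e-08). All treated libraries lay above all DMSO libraries for both, and PTCH1 shares 711 exon bases with ENSG00000271155. GLI3 rose from 4.82 to 11 CPM, GLI2 fell from 19.5 to 15.2 CPM, and SMO was at 57 and 61.7 CPM (0.175). The co-receptors GAS1, BOC and CDON rose by 1.04, 0.95 and 0.56. Of 61 pathway and cilium genes 32 were higher and 8 lower (median 0.27). The cilium genes named ran from WDR35 (−0.77) to KIF17 (1.47), a kinesin of cilium transport.

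Of 44 WNT pathway genes 16 were higher and 16 lower, 36.4% each way, against 30.9% and 30.4% of all genes tested. TCF7, a DNA-binding partner of beta-catenin, fell from 307, 267 and 330.5 to 59.4, 58.3 and 56.4 CPM (−2.38 ± 0.07, edgeR adjusted p = 2.22e-14), with 210 exon bases shared with SKP1. Its relatives TCF7L2 (−0.39) and TCF7L1 (0.15, 0.222) were nearer to 0, and CTNNB1, the gene of beta-catenin, was at 375 and 370.1 CPM (0.777). Among ligands WNT4 rose from 0.247, 0.769 and 0.666 to 10.9, 8.31 and 11.2 CPM and WNT5B from 10.0 to 32.3 CPM, while WNT7B fell from 33.9 to 16 CPM. PORCN, which acylates WNT ligands, fell from 27.6 to 15 CPM. The negative feedback genes were divided, with AXIN2 (0.89) higher and NKD1 (−1.02) and NKD2 (−0.92) lower.

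Notch, TGF-beta and BMP genes were also mixed. In the Notch list 17 of 29 rose and 8 fell. The ligand gene JAG1 fell from 329, 294 and 309 to 144, 144 and 143 CPM (−1.11 ± 0.06) and DLL1 rose from 2.36 to 9.41 CPM. The HES family repressors HES2 and HES4 rose from 5.96 to 38 and from 14.1 to 76.4 CPM and the Notch target NRARP fell by 1.08 on the log2 scale. Of 50 TGF-beta and BMP genes 26 rose and 12 fell. TGFB2 rose from 0.845 ± 0.165 to 7.59 ± 1.1 CPM (3.17), and ID2, a BMP-responsive inhibitor of differentiation factors, from 10.9, 11.8 and 16.8 to 80.6, 85.5 and 84.5 CPM (2.67 ± 0.12, edgeR adjusted p = 6.45e-10). The BMP antagonist NOG fell from 23.8 to 5.25 CPM and CHRD, another, rose from 3.3 to 10.7 CPM. The TGF-beta targets PMEPA1 (−1.91) and TGFBI (−1.58) fell, while SMAD7 (0.72) rose. The inhibitory SMAD6 rose from 13.4 to 40.5 CPM.

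**Figure D3:**
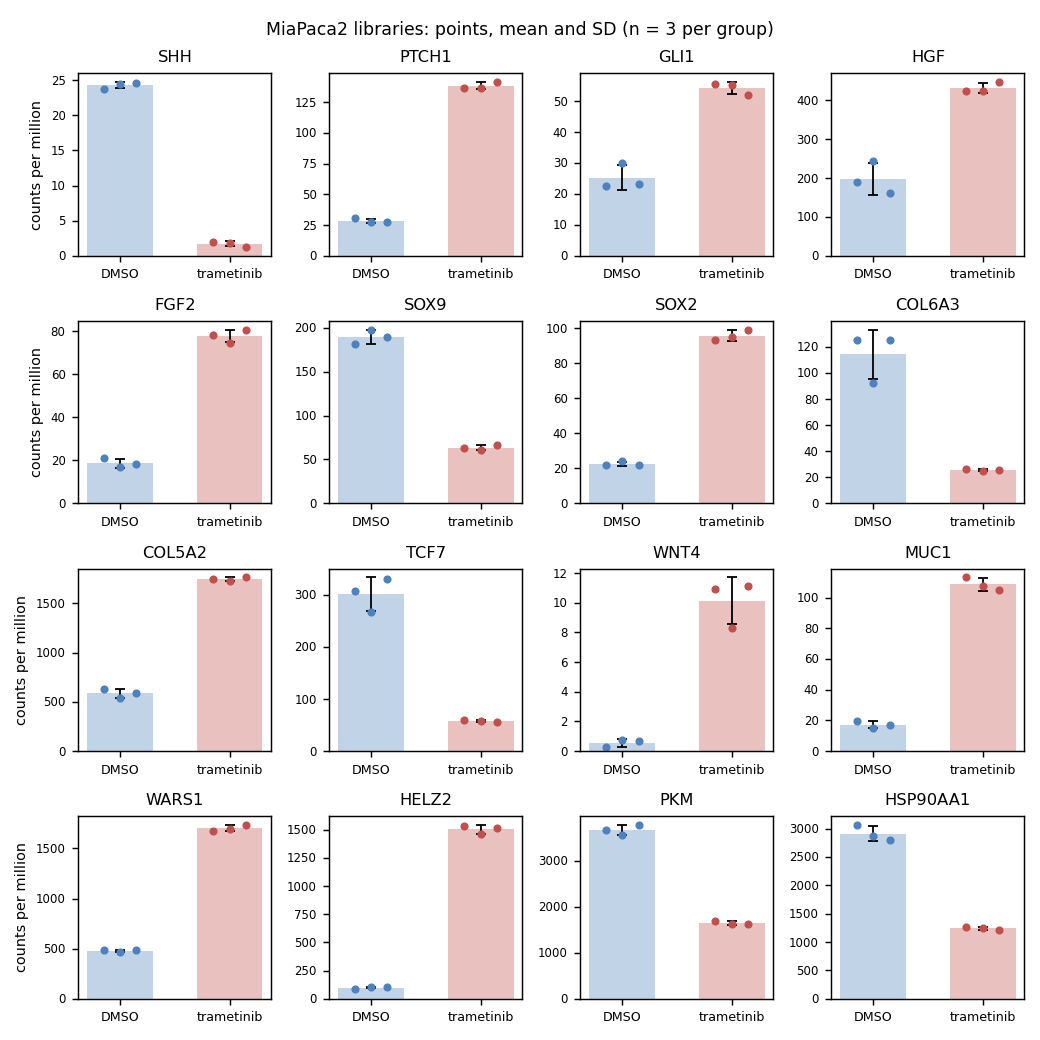
CPM of 16 genes from the programmes described, with 1 point per MiaPaca2 library, bars at the mean and error bars of 1 SD (n = 3 per group). In each panel the DMSO and trametinib libraries do not overlap; SHH falls while PTCH1 and GLI1 rise, and COL6A3 falls while COL5A2 rises.

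Collagen and matrix genes rose together, with a few large exceptions. Of 28 collagen genes tested, 21 were higher, 18 of them at least 2-fold, and 4 lower (median 1.28). Fibrillar chains rose: COL1A2 went from 119, 68.1 and 115 to 202, 201 and 213 CPM (1.03 ± 0.22), lowest in DMSO replicate 2, COL3A1 from 5.44 to 25 CPM, COL5A1 from 2.72 to 11.9 CPM and COL11A1 from 0.724 to 5.64 CPM. In collagen VI, a beaded filament of 3 chains, the genes moved in opposite directions. COL6A3 fell from 126, 92.6 and 125 to 26.5, 24.7 and 25.5 CPM (−2.16 ± 0.11, edgeR adjusted p = 1.76e-09), while COL6A1 and COL6A2 rose from 133 to 260.2 and from 79.9 to 183 CPM. The basement membrane chains COL4A1 and COL4A2 did not pass (0.086 and 0.0771), and COL4A5 rose from 5.8 to 25 CPM. The epithelial anchor COL17A1 fell from 169 to 99.1 CPM. Genes that process collagen did not follow: 6 rose and 11 fell of 25, and the collagen chaperone SERPINH1 fell from 178, 158 and 198 to 80.2, 77.8 and 79 CPM (−1.17 ± 0.07). The number of risers there became 3 without any 1 of the 3 trametinib libraries, and the number of fallers 7 without DMSO replicate 3 and 6 without trametinib replicate 2. The summed level of 6 fibroblast markers, led by COL1A2, was 72.8 to 123 CPM in DMSO and 215 to 227 CPM under trametinib, with DCN, LUM and PDGFRA below 1 CPM throughout.

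Glycoproteins and proteoglycans of the matrix showed 32 of 51 genes higher and 7 lower (median 1.06). Basement membrane parts rose together: the laminin chain genes LAMA5 from 183 to 470.1 CPM and LAMB2 from 62.2 to 183 CPM, the perlecan gene HSPG2 from 134 to 425 CPM and AGRN from 312, 392 and 368 to 1002, 969 and 1029 CPM (1.49 ± 0.07). FBN1, the fibrillin of microfibrils, rose from 4.58, 2.52 and 4.44 to 37.8, 34.2 and 33.7 CPM (3.19 ± 0.16), MATN2 from 3.78 to 41.9 CPM and VCAN from 11.2 to 60.7 CPM. LAMA2 fell from 10.4 to 4.05 CPM, osteopontin (SPP1) from 36.4 to 16.8 CPM and the IGF-binding genes IGFBP4 and IGFBP6 from 251 to 121 and from 183 to 82.1 CPM. Among proteases and their inhibitors 19 of 44 rose and 9 fell. TIMP1, which inhibits matrix metalloproteases, fell from 336, 330.1 and 369 to 50.5, 53.9 and 53.3 CPM (−2.71 ± 0.06, edgeR adjusted p = 2.69e-16), and the collagenase MMP1 from 16.5, 8.37 and 17.4 to 2.27, 3.87 and 2.56 CPM.

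In the list of cadherins and mesenchymal genes 14 rose and 6 fell of 22 (median 0.93), and in the integrin list 6 rose and 7 fell of 18. The integrin shares, 33.3% and 38.9%, were near the 30.9% and 30.4% of all genes tested. Among cadherins, CDH3 rose from 31.4 to 174 CPM, CDH2 from 27.3, 47.4 and 27.1 to 72.8, 69.2 and 73 CPM, highest in DMSO replicate 2, and CDH6, with 0 counts in DMSO, reached 1.65 CPM, which is at least 38.3-fold higher. PCDH18 rose from 0.996 to 15.2 CPM and PCDH9 from 2.55 to 19.6 CPM, and PCDH1 fell from 69.3, 64.3 and 79.8 to 11, 9.76 and 11.3 CPM (−2.73 ± 0.10). SNAI2, a repressor of epithelial genes, rose from 0.784, 0.427 and 0.577 to 9.0, 11.2 and 9.31 CPM (4.03 ± 0.23) while SNAI1 fell by 0.46 on the log2 scale. The integrin subunit ITGB4, which binds laminin in hemidesmosomes, fell from 165, 171 and 166 to 65.6, 63.8 and 64.5 CPM (−1.37 ± 0.06), ITGAV rose from 90.1 to 149 CPM and ITGB8 from 9.31 to 28.2 CPM. Keratin and junction genes rose in 26 and fell in 12 of 44 cases. The abundant simple keratins fell, KRT8 from 852, 766 and 1002 to 354, 352 and 363 CPM and KRT18 from 751, 708 and 821 to 207, 221 and 212 CPM, 2 genes that share 525 exon bases. The epithelial factor GRHL3 (1.12 to 8.17 CPM) and the desmosomal PKP2 (8.81 to 29.2) rose, and the tight junction gene CLDN11 fell from 110.3 to 24.6 CPM. MUC1, an epithelial surface mucin, rose from 19.4, 14.9 and 17.1 to 113, 108 and 105 CPM (2.66 ± 0.09, edgeR adjusted p = 3.94e-14).

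YAP and TEAD target genes rose in 24 and fell in 8 of 38 cases (median 0.60). YAP and its relative TAZ carry mechanical and contact signals to TEAD factors. The classic targets CCN1 and CCN2 rose from 134 to 303 and from 37.2 to 72.6 CPM and AMOTL2 from 146, 171 and 167 to 489.7, 488 and 491 CPM (1.60 ± 0.06). The giant cadherin FAT4 rose from 15.7 to 84 CPM, and NT5E fell from 474, 455 and 463 to 127, 122 and 134 CPM. The genes of the coactivators themselves fell, YAP1 by 0.32 and WWTR1 by 0.53 on the log2 scale. The number that fell was 5 without trametinib replicate 1 or 2, and with library size alone as the scaling.

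Guidance genes of axons were another group with more rises than falls, 35 against 9 of 61 (median 0.55). Secreted class 3 semaphorins rose: SEMA3C from 144, 135 and 120.3 to 371, 367 and 393 CPM (adjusted p = 1.55e-12 in edgeR), SEMA3D from 35.4 to 132 CPM, SEMA3E from 31 to 92.2 CPM, SEMA3F from 15.6 to 61.4 CPM and SEMA3A by 0.39 on the log2 scale. SLIT2 and SLIT3, ligands of ROBO receptors, rose from 14.9 to 36.8 and from 5.99 to 27.4 CPM, and NTN1 from 33.5 to 118 CPM. The transmembrane SEMA6B fell from 314, 286 and 387 to 124, 126 and 119.8 CPM (−1.41 ± 0.09), the receptor PLXND1 from 213 to 124 CPM and the ephrin receptor EPHA8 from 6.37 to 0.901 CPM. Microtubule genes were split, 27 up and 19 down of 61, which is 44.3% and 31.1% against 30.9% and 30.4% of all genes tested. MAP2, a microtubule-associated protein of neuronal dendrites, rose from 64.7 ± 10.9 to 508 ± 7.53 CPM (2.97 ± 0.10), with an adjusted p of 1.83e-10 in edgeR, while STMN3, a tubulin-binding stathmin, fell from 194, 166 and 225 to 26.7, 26.6 and 25 CPM (−2.90 ± 0.10). The neuronal-type tubulins TUBA1A and TUBB2B rose by 1.77 and 1.83, with 490 exon bases of TUBA1A shared with TUBA1C and close paralogs for both.

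Among regulators of the actin cytoskeleton both directions were common. RHOB, a short-lived endosomal GTPase, rose from 22.2, 25.6 and 27.4 to 222, 211 and 211 CPM (3.10 ± 0.07, edgeR adjusted p = 5.27e-16), and RAC2 fell from 11.3 to 2.07 CPM. CDC42EP3 fell from 229, 187 and 217 to 74.7, 72.4 and 81.2 CPM (−1.47 ± 0.07). The actin-bundling SYNPO and the tropomyosin TPM1 rose from 32.2 to 133 and from 44 to 168 CPM. Channels and pumps rose in 41 and fell in 15 of 75 cases, with the chloride channel protein CLIC3 rising from 0.671 to 20.3 CPM and the sodium channel subunit SCNN1A falling from 77.1, 64.7 and 79.7 to 13.9, 11 and 12.3 CPM. Of the coupled receptors, ACKR3, a scavenger of the chemokine CXCL12, rose from 2.62 to 25.5 CPM and the thrombin receptor F2R fell from 558, 469.7 and 556 to 127, 128 and 129 CPM (−2.05 ± 0.06).

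Genes that mark pancreatic lineages fell more often than they rose, 13 against 7 of 25 (median −0.58). The ductal factor SOX9 fell from 181, 198 and 189 to 63.1, 60.6 and 66.4 CPM (−1.58 ± 0.06, edgeR adjusted p = 4.97e-13), KRT19 from 177 to 95.2 CPM and GATA4 from 34.4 to 23.4 CPM. The largest rise in this list was that of MUC1, given above (17.1 to 109 CPM, 2.66). GATA6 rose from 5.07 to 10.4 CPM and NR5A2 from 27.8 to 43.3 CPM. The summed level of 7 ductal markers went from 1830 to 2200 CPM in DMSO to 723 to 740 CPM under trametinib, a sum held mostly by KRT8 and KRT18. The low epithelial markers went the other way, CDH1 from 0.165, 0.213 and 0.0444 to 2.11, 2.56 and 2.08 CPM and EPCAM from 0.33, 0.213 and 0.0444 to 0.916, 0.483 and 0.759 CPM. SOX2, a factor of stem and neural cells, rose from 22, 23.9 and 21.9 to 93, 95.2 and 99.2 CPM (2.08 ± 0.07). The homeobox factor DLX1 fell from 9.19 to 3.21 CPM. Of the Kruppel-like factors KLF9, KLF5 (2.79 to 7.39 CPM) and SP6 (4.17 to 15.8) rose, and KLF4 (28.7 to 17.4) and KLF13 (33.3 to 21.7) fell. KLF2 fell by 0.55 on the log2 scale, a call lost without DMSO replicate 1 (edgeR adjusted p = 0.0515) or trametinib replicate 3 (0.0724). The clock repressor PER2 fell from 21.5 to 4.88 CPM and its activator NPAS2 from 142 to 53.2 CPM, while the glucocorticoid receptor NR3C1 rose from 77.9, 69.3 and 72.2 to 148, 146 and 141 CPM.

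Of 95 chromatin modifiers 37 were higher and 36 lower, shares of 38.9% and 37.9% against 30.9% and 30.4% of all genes tested. SMARCA4, the ATPase of SWI/SNF remodellers, fell from 411, 394 and 461 to 202, 197 and 186 CPM (−1.11 ± 0.06, edgeR adjusted p = 5.63e-11), and SMARCD3, an alternative subunit, rose from 30.2 to 72 CPM. HDAC5 rose from 22.7 to 69.4 CPM. Histone genes were higher in 17 and lower in 5 of 34 cases, the risers led by H2BC21 (4.61 to 31.8 CPM), H1-2 (16.4 to 70.7) and H2AC6 (8.3 to 32.7). All 5 that fell, H2AC14, H1-5, H3C12, H1-4 and H2AC20, were under 3 CPM in DMSO. Without DMSO replicate 2 or trametinib replicate 2 the number was 3, and without DMSO replicate 3 it was 2. Most histone mRNA lacks a poly(A) tail and the labels name an mRNA library kit, so how much of it was captured is unknown, and many histone copies are near identical.

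The machinery that makes RNA and protein fell broadly and by modest amounts. In the lists named next 74.5% to 90.6% of tested members fell, against 30.4% of all genes tested. Abundant genes fell more often in general, 38.5% of protein-coding genes at 20 to 100 CPM and 53.4% over 100 CPM. How far abundance accounts for the falls of these lists was not tested. Ribosome biogenesis and RNA polymerase I and III genes fell in 77 of 85 cases (median −0.55), the spliceosome and hnRNP list in 70 of 83 (−0.48) and cytosolic ribosomal proteins in 60 of 80 (−0.30). Mitochondrial ribosomal proteins fell in 59 of 77 cases (−0.41), nuclear import and pore genes in 43 of 55 (−0.48), translation factors in 41 of 55 (−0.41) and aminoacyl-tRNA synthetases in 32 of 40 (−0.41). EBNA1BP2, a factor of the large ribosomal subunit, fell from 342, 322 and 362 to 128, 132 and 128 CPM (−1.40 ± 0.06, edgeR adjusted p = 7.61e-13), and nucleolin (NCL) from 2566 to 1652 CPM. SNRPB, a core splicing protein, fell from 293 to 121 CPM and RCC1, the exchange factor that drives nuclear import, from 281 to 133 CPM. The translation repressor EIF4EBP1 fell from 126, 139 and 143 to 48.1, 45.4 and 48.8 CPM (−1.51 ± 0.07) and another inhibitor of translation, PDCD4, rose from 50.9 to 85.3 CPM. RPLP1 was the only cytosolic ribosomal protein gene that rose, from 944 to 1179 CPM, and WARS1 and HARS2 (0.33) were the only synthetases that rose. RPL39 and RPS26, which fell, were measured at under 7 CPM, and ribosomal protein genes have many processed pseudogenes.

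Most cytosolic chaperone and proteasome genes were also lower. Cytosolic chaperones and chaperonin subunits fell in 36 and rose in 11 of 53 cases. The mitochondrial chaperone TRAP1 fell from 417, 396 and 470.5 to 212, 211 and 206 CPM (−1.03 ± 0.06), and the J-domain proteins DNAJB2 and DNAJB4 rose from 31.8 to 91.5 and from 10.2 to 24.5 CPM. Proteasome genes fell in 27 of 40 cases, among them the assembly factor POMP (81.7 to 51.2 CPM). PSME1 and PSME2, the proteasome activator subunits that interferon is known to induce, rose from 77.5, 74.5 and 74.3 to 232, 233 and 236 CPM (1.63 ± 0.05) and from 83.8, 83.5 and 84.3 to 215, 221 and 228 CPM (1.40 ± 0.05). Of all proteasome genes 5 rose, and the number was 3 without DMSO replicate 2 or trametinib replicate 1 and 2 without trametinib replicate 3. DNA repair genes fell in 53 of 92 cases, with the helicase RECQL4 falling from 92.4 to 40.7 CPM and the end-joining factor XRCC4 from 42.6 to 15.2 CPM, while NBN, a damage sensor, rose from 48.9 to 76.3 CPM.

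In 4 lists of carbon and nucleotide metabolism more genes fell than rose, while the pentose phosphate and NADPH list had 7 higher and 6 lower of 14. In glycolysis 18 of 32 genes were lower and 7 higher (median −0.37). PKM fell from 3666, 3553 and 3775 to 1684, 1622 and 1620 CPM (−1.16 ± 0.05, edgeR adjusted p = 6.17e-13), the lactate exporter SLC16A3 from 190 to 86.8 CPM and the glucose transporter SLC2A3 from 62.1 to 26.1 CPM. Against these, the transporters SLC2A12 and SLC2A8 rose from 10.6, 10.5 and 12.1 to 79.6, 75.9 and 79.8 CPM and from 12.5, 19 and 13.2 to 95.6, 87.7 and 91.2 CPM, SLC2A12 with 1736 exon bases shared with TBPL1. In the TCA cycle 21 of 32 genes fell and 3 rose, with GOT2 at −0.84 and PCK2 at −0.86. Serine, glycine and one-carbon genes fell in 18 and rose in 5 of 28 cases: GLDC, which cleaves glycine, from 12.9, 11 and 10.7 to 1.87, 2.46 and 2.92 CPM (−2.25 ± 0.18), TYMS, which makes thymidylate, from 308 to 152 CPM and the folate carrier SLC19A1 from 130.5 to 50.3 CPM. Purine and pyrimidine synthesis genes fell in 28 and rose in 11 of 47 cases, CAD, the first enzyme of pyrimidine synthesis, from 459, 469 and 484 to 252, 266 and 252 CPM (−0.87 ± 0.05). SAMHD1, which breaks down deoxynucleotides and is known to be induced by interferon, rose from 63.5, 59.4 and 65.8 to 336, 330.2 and 332 CPM (2.40 ± 0.06).

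Lipid and polyamine genes were mixed. FASN, the fatty acid synthase, fell from 1315, 1643 and 1562 to 812, 798 and 816 CPM (−0.90 ± 0.07). SCD, a desaturase, was at 788, 1115 and 782 CPM in DMSO, highest in replicate 2, and at 549, 567 and 607 CPM under trametinib (−0.64 ± 0.15, edgeR adjusted p = 0.00866). The peroxisomal oxidase ACOX2 fell from 12.5 to 1.42 CPM and DECR1, of fatty acid oxidation, rose from 30.8 to 59.5 CPM. Cholesterol genes showed 10 higher and 9 lower of 31, close to the shares of all genes, and the exporter ABCA1 rose from 15.7 to 31.4 CPM. UGCG, which makes glucosylceramide, rose from 33.6 to 96.8 CPM and the ceramide kinase CERK fell from 66.3 to 26.1 CPM. ODC1, the first enzyme of polyamine synthesis, fell from 512, 591 and 501 to 209, 209 and 201 CPM (−1.37 ± 0.06), AMD1 from 169 to 93.6 CPM, and the brake OAZ2 rose from 97.6 to 146 CPM.

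Mitochondrial transcripts depended on which library was used. Of 13 mitochondrial protein genes 7 passed as higher, among them MT-ND5, at 1140, 1807 and 1003 CPM in DMSO and 2591, 2409 and 2530 CPM under trametinib (0.93 ± 0.24, edgeR adjusted p = 0.0229), and MT-CO1 (0.72 ± 0.21, 0.0309). DMSO replicate 2 was the highest DMSO library for both, and neither passed without DMSO replicate 1 (0.101 and 0.121). The number passing was 12 without DMSO replicate 2, 1 without DMSO replicate 1 and 4 without trametinib replicate 1 or 3. The ribosomal RNA gene MT-RNR2 went from 3020, 3587 and 3223 to 6783, 6679 and 6827 CPM (1.05 ± 0.06, 3.39e-11). Of 71 nuclear-encoded subunits 9 rose and 26 fell, with a median of −0.06, and 5 rose without DMSO replicate 1.

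Survival and stress genes moved in both directions. Of 20 BCL2 family genes tested, 10 were higher and 6 lower, with a median of 0.23. BCL2, the anti-apoptotic founder of its family, fell from 8.09, 8.88 and 8.17 to 2.59, 2.32 and 2.2 CPM (−1.82 ± 0.17, edgeR adjusted p = 6.31e-08). The BH3-only killers BMF (2.89, 2.13 and 2.49 to 17.8, 15.9 and 14.6 CPM), BCL2L11, which encodes BIM (29.6 to 51.9), BBC3, which encodes PUMA (4.73 to 10.9), and HRK (1.4 to 4.64) rose. MCL1 rose from 242 to 311 CPM, BCL2L1 was at 131 and 125 CPM (0.429), BAK1 rose from 25.9 to 42.3 CPM and BAX fell from 92 to 63.6 CPM. Genes of the p53 list rose in 13 and fell in 12 of 34 cases, 38.2% and 35.3%, near the 30.9% and 30.4% of all genes tested. Within it BTG2 rose from 15 to 143 CPM. The decoy death receptor TNFRSF10D fell from 40.0, 35.7 and 38.9 to 5.1, 6.09 and 4.4 CPM (−2.89 ± 0.12). In the integrated stress response list 13 rose and 5 fell of 29. ATF4 itself was at 176 and 146 CPM (0.0593), its target ASNS fell from 3.0 to 1.33 CPM, and DDIT3, which encodes CHOP, rose from 9.12 to 22.9 CPM. ATF3 was at 4.25, 11.1 and 4.62 CPM in DMSO, highest in replicate 2, and 34.3, 33.3 and 33.9 CPM under trametinib (2.34 ± 0.35, or 2.93 without that library). NUPR1, a stress-induced chromatin protein, rose from 0.289, 0.427 and 1.02 to 21.2, 18.6 and 20.3 CPM (5.12 ± 0.24, or 5.79 without DMSO replicate 3).

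Autophagy genes rose in 34 and fell in 8 of 58 cases (median 0.29), and without trametinib replicate 2 the fallers were 5. The cargo receptor OPTN rose from 42.7, 48 and 38.1 to 237, 238 and 250.3 CPM (2.49 ± 0.07, edgeR adjusted p = 1.08e-14), and the inducer DRAM1 from 8.58 to 35.9 CPM. Of 53 NRF2 and glutathione genes 26 rose and 15 fell. GCLM, a subunit of the enzyme that limits glutathione synthesis, fell from 157, 114 and 132 to 60.8, 62.9 and 57.9 CPM (−1.15 ± 0.10), and AIFM2, a quinone reductase that blocks ferroptosis, from 23.4 to 10.1 CPM. TXNRD1 and OSGIN1 rose by 0.79 and 1.64.

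Of long non-coding genes 23.0% were called higher and 13.7% lower, and of protein-coding genes 32.8% and 33.4%. Called changes of at least 2-fold ran the other way, 14.3% higher and 8.17% lower of long non-coding genes and 11.8% and 4.46% of protein-coding genes. The classes stood at a median mean of 1.18 and 31.4 CPM, and the difference between them was not tested. LINC02593 rose from 1.07, 1.24 and 1.33 to 28.4, 30.5 and 30.9 CPM (4.62 ± 0.14, edgeR adjusted p = 1.78e-14), and NAALADL2-AS2 from 1.26 to 10.9 CPM. IRF1-AS1 (3.46), PSMB8-AS1 (3.38) and AP1G2-AS1 (2.23) share exon bases with IRF1, PSMB8 and AP1G2, and since the use of strand in counting is not given, their reads cannot be told apart from those of the partner. Among fallers BCAN-AS2 (−3.00) shares exon bases with BCAN.

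Some neighbouring genes changed together, positions being those of GENCODE 29 on GRCh38. Runs of at least 4 consecutive tested genes that all moved at least 2-fold the same way were found 16 times. Of these, 4 hold families of the interferon or antigen presentation type (GBP, OAS and 2 runs of HLA genes). Other runs hold single interferon response genes, among them ISG15, IFIH1 and SHFL. On chromosome 1, from 200891048 to 201228952, INAVA, KIF21B, CACNA1S, ASCL5, TMEM9 and IGFN1 all rose, by 3.03, 1.53, 4.29, 5.73, 1.31 and 11.18. Without DMSO replicate 3, which held the few DMSO counts, CACNA1S was at 7.85, ASCL5 at 9.29 and IGFN1 at 13.08. IGFN1 was at 0 CPM in DMSO replicates 1 and 2. Values fitted with so few or no DMSO counts are not measured sizes and do not show stronger rises. In this run TMEM9 was the only gene above 5 CPM in DMSO (52.4 to 130.4 CPM). On chromosome 19, from 42485076 to 43269530, CEACAM1 (0.352 to 9.79 CPM) rose with the pregnancy-specific glycoproteins PSG5, PSG4 and PSG9, which are near-identical copies and so uncertain. The lipocalin genes LCN12, PTGDS and LCNL1 and the neighbouring C8G rose together on chromosome 9 (136945185 to 136986410). On chromosome 2, from 237324003 to 237555318, COL6A3 fell with MLPH, a melanosome transport protein (40.1 to 5.25 CPM), and 2 long non-coding genes. The zinc finger genes ZNF66, ZNF85, ZNF430 and ZNF714 fell together on chromosome 19 (20776304 to 21125270), by 1.41, 1.28, 1.18 and 2.05 on the log2 scale.

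Most genes called in both lines changed in the same direction in both. Over 16133 genes tested in all 12 libraries, the difference between the 2 responses passed edgeR's test for 5828 (36.1%), 3212 with the MiaPaca2 log2 fold change above that of KP4 and 2616 below. Which side was larger depended on the setting: without KP4 trametinib replicate 1 the counts were 2406 above and 2957 below, with DESeq2's size factors in edgeR 2815 and 3088, in DESeq2 2843 and 3086, and with a stricter filter 2914 and 2964. In all, 2770 genes were called higher in both lines and 2681 lower in both, while 190 were higher in MiaPaca2 and lower in KP4 and 188 the reverse. A further 3530 genes were called in MiaPaca2 and not in KP4, of which 1989 passed the test of the difference. Of the 382 genes that the naming rules chose, 285 differed between the lines, 198 of them changed the same way in both, and 175 of these changed more in MiaPaca2. The rules chose most genes by their change in MiaPaca2 and some from those past the test of the difference. The counts among named genes are therefore not evidence about the lines.

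Programme medians were nearer to 0 in KP4 for the machinery lists, and this was not particular to them. Collagens were at 0.73 in KP4 against 1.28 in MiaPaca2, while the WNT list went the other way, at 0.24 against 0.13. Among machinery lists the medians were −0.30 against −0.55 for ribosome biogenesis, −0.22 against −0.48 for the spliceosome and −0.18 against −0.48 for nuclear import (KP4 first). In these lists 49 of 85, 49 of 83 and 37 of 55 members passed the test of the difference, which called 36.1% of all genes. Of cytosolic ribosomal proteins 21 of 80 passed it, and of mitochondrial ribosomal proteins 31 of 77. WARS1 was at 1.83 in MiaPaca2 and −0.23 in KP4 (difference 2.09, edgeR adjusted p = 1.20e-19). FASN was at −0.90 and 0.16 (difference −1.03, 1.87e-07), SMARCA4 at −1.11 and 0.16 (−1.24, 5.46e-13) and ITGB4 at −1.37 and 0.76 (−2.10, 5.26e-17). For RHOB, at 3.10 and 3.01, and HMGA1, at −1.78 and −1.84, the difference did not pass (0.278 and 0.295). PODXL, a sialomucin of the cell surface, fell in MiaPaca2 from 632, 529 and 630.1 to 216, 217 and 225 CPM and was higher under trametinib in KP4, at 8.44 and 36.4 CPM (difference −3.52, 1.62e-12). PLXNA2, a semaphorin receptor, rose from 1.14 to 7.03 CPM in MiaPaca2 and fell from 2.43 to 0.890 CPM in KP4, and the chemokine CXCL3 rose from 2.97 to 17 CPM in MiaPaca2 and fell from 3.40 to 1.88 CPM in KP4.

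**Figure D4:**
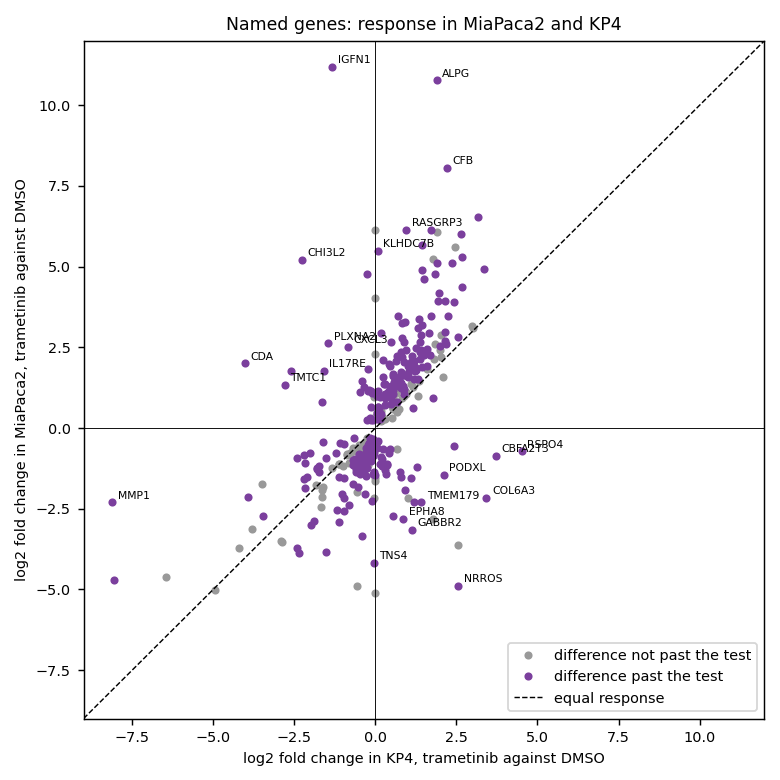
Log2 fold change of the 382 named genes in MiaPaca2 (vertical) against KP4 (horizontal), trametinib minus DMSO; purple points passed edgeR's test of the difference, the dashed line marks an equal response, and genes without counts in KP4 lie at 0 on the horizontal axis. Many points lie farther from 0 in MiaPaca2, the line whose changes chose them, and labelled genes are those with the largest or with opposite responses.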

How the data were processed

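The authors deposited a table of raw read counts per gene for 12 libraries; the values are whole numbers and were not scaled. The build GRCh38 (hg38) and the tools STAR and DESeq2 are named, per the submitters' processing notes. For the counting program, its use of strand and the annotation, the entry is: not given in the sources used here. Gene names, types and positions were taken from GENCODE 29 (GRCh38).

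The 6 MiaPaca2 libraries were fitted with edgeR 4.0.16 in R 4.3.3 (filterByExpr, TMM scaling, robust quasi-likelihood test), and p-values were adjusted by Benjamini-Hochberg over all 15278 genes tested. A gene was called at an adjusted p under 0.05. The standard error is the log2 fold change divided by the root of F. The difference between the lines is the interaction term of a fit over 12 libraries. The biological coefficient of variation was 7.51%. Totals of at least 20293688 counts make 1 count about 0.05 CPM or less, and a group with 0 counts was given a floor of 3 counts over the group. Ratio intervals are 95% and cover counting error only.

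The members and gene lists were chosen with earlier results of these data known. Named genes are the 15 highest and 15 lowest log2 fold changes outside the lists set aside, with non-overlapping libraries and at least 5 CPM in the higher group, and the 10 each way with the largest CPM difference. To these were added up to 3 each way per list, members whose role the text needs, 8 each way for the difference from KP4, 8 with opposite responses and 6 long non-coding genes each way. Some items that these rules chose are not reported here. Neighbouring-run genes and the 4 promoters shown were chosen after their values were seen. Alternatives were other scalings and filters, DESeq2 1.42.0, limma-voom 3.58.1, a 12-library fit, a replicate block, removal of mitochondrial transcripts and each library left out.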

Additional observations from a re-analysis of the deposited data

Results flagged for a closer look

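The 21 genes given here lie outside the lists set aside and were taken only from genes past edgeR's test of the difference itself, MiaPaca2 against KP4. Among those they were chosen for the size of the difference or for opposite responses. The values are log2 responses of MiaPaca2 minus those of KP4. Those furthest above 0 were 12.57 for IGFN1, 9.0 for ALPG, 7.53 for CHI3L2, 6.06 for the cytidine deaminase CDA, 5.90 for CFB, 5.85 for MMP1, 5.46 for KLHDC7B and 5.22 for RASGRP3. Those furthest below 0 were −7.42 for NRROS, −5.56 for COL6A3, −5.21 for the WNT enhancer RSPO4, −4.56 for the corepressor CBFA2T3, −4.23 for the GABA receptor subunit GABBR2, −4.09 for TNS4, −3.68 for TMEM179 and −3.64 for EPHA8. Opposite calls in the 2 lines gave 4.16 for TMTC1, 4.10 for PLXNA2, −3.52 for PODXL, 3.41 for CXCL3 and 3.40 for the interleukin receptor IL17RE.

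Few counts stand behind many of the KP4 values: 12 of the 21 genes had under 20 counts in both KP4 groups, each summed over 3 libraries. IGFN1 had 3 and 1 counts in KP4 DMSO and trametinib, NRROS 0 and 2, COL6A3 0 and 4, and CFB 2 and 11, so these differences describe the change in MiaPaca2 with little measured in KP4. MMP1 had 908 counts in KP4 DMSO and 3 under trametinib, and it fell in MiaPaca2 from 14.1 to 2.9 CPM, so its positive value is a larger fall in KP4. TNS4 had 25 and 25 counts in KP4, KLHDC7B 52 and 57, and PODXL 664 and 2990. The call was lost when 1 library was left out for ALPG, CBFA2T3, CFB, COL6A3, EPHA8, GABBR2, NRROS, RSPO4 and TMEM179. For COL6A3 and CBFA2T3 this held for several libraries of both lines, and for the other 7 only for libraries of KP4. CBFA2T3 did not pass in limma-voom either.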

How the results depend on the processing

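Over the alternatives tried, the genes called higher in MiaPaca2 numbered 4525 to 5500 and those called lower 4154 to 4756, against 4717 and 4642. Leaving out 1 library gave 4293 to 4934 and 4137 to 4804. The share of called genes that were higher was 50.4%, and 55.4% with library size as the only scaling. The replicate numbers did not pair the samples: correlations of deviations for equal numbers were 0.00552, −0.014 and −0.0222. With the number as a block, 4682 genes were higher and 4574 lower, and the difference from KP4 was above 0 for 3087 and below 0 for 2484. Leaving out 1 library moved the last 2 counts between 2406 and 3794 and between 2328 and 3058. Of 531 genes followed, 506 kept direction and call under every alternative. Among their 8478 values, 55 no longer passed, 18 newly passed and 0 changed direction. Of 136 counts per list, 119 stayed within 1.5 times, and 39 of 2176 values did not. MT-CO1 lost its call under the block. The causes were not tested. Genes under 1 CPM are limited by depth, since few counts stand behind them.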

Other observations

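Genes of glycan, surface and membrane lipid metabolism also changed. HAS3, which makes hyaluronan, fell from 205 ± 50.3 to 72.1 ± 2.69 CPM (mean ± SD, n = 3), and the heparan sulfatase SULF2 rose from 1.99 to 10.8 CPM. Of 64 glycosylation genes 29 rose and 14 fell. The prion protein gene PRNP fell from 403 ± 28.2 to 149 ± 5.45 CPM, and the sialomucin PODXL2 from 44.1 to 18.4 CPM. A4GALT, which makes globotriaosylceramide, rose from 4.35 to 15.1 CPM.

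Of 30 amino acid transporters 11 were higher and 11 lower, 36.7% each way, against 30.9% and 30.4% of all genes tested. SLC7A5, the large neutral amino acid carrier, fell from 536 ± 67.3 to 306 ± 11.2 CPM and the arginine carrier SLC7A1 from 243 to 143 CPM, while the glycine carrier SLC6A9 rose from 17.6 to 43.3 CPM. Striated muscle genes rose in 14 and fell in 3 of 21 cases (median 0.57), among them CKB, a creatine kinase, from 26.2 to 89.4 CPM, and XIRP2, an actin-binding protein, from 14.5 to 40.3 CPM. The largest fall among them was in MYBPH, a myosin-binding protein, from 330 counts over the DMSO libraries to 3 under trametinib, a 111-fold lower level (counting interval 37.7 to 541). PRPS2, which makes the ribose precursor of nucleotides, fell from 246 to 111 CPM. In endoplasmic reticulum genes 23 rose and 7 fell of 51, SEL1L from 63.6 to 104 CPM and TXNDC5 from 29.5 to 14.9 CPM.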
